A study of Mus musculus with 25 samples.

Results

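The genes described here are the 39 mouse genes of the urea cycle and of amino acid catabolism in liver, listed by symbol under 8 pathways. The rule uses no measured value, but the list was drawn up with earlier results of these data known. They were 39 of the 41388 gene identifiers counted, and all 39 were among the 14065 genes that passed the filter on low counts. In the liver, the urea cycle turns ammonia into urea for excretion, and it is fed by enzymes that strip nitrogen from glutamine, glutamate, aspartate and alanine. Other liver enzymes break down the carbon skeletons of tyrosine, serine, sulfur amino acids, histidine, proline, lysine and the branched-chain amino acids into intermediates of central metabolism. These genes are known for their high expression in hepatocytes and for responding to protein intake, fasting, glucagon and glucocorticoids.

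The libraries were poly-A RNA from livers of 25 male C57B/6J mice aged 20 weeks, 1 library per mouse. The study asked how the deacetylase SIRT1 bears on liver gene expression driven by NAMPT, the enzyme that makes nicotinamide mononucleotide in NAD salvage. WT mice were Sirt1 LoxP/LoxP littermates, and mice labelled LKO carried the same alleles plus Albumin-Cre, which is active in hepatocytes. An AAV8 virus given by tail vein carried an empty vector (EV) or NAMPT under the thyroxine-binding globulin promoter, a hepatocyte promoter, so every group had received the virus. The diet, chow or Western diet (WD), ran for 12 weeks. Chow was given to 3 WT mice with EV. Western diet was given to 12 WT mice, 6 per vector, and to 10 mice labelled LKO, 5 per vector, and replicates are separate mice, so that p-values measure the spread between mice.

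Total counts ran from 20166175 to 32937326 per library, and the 6 hepatocyte markers together held between 52900 and 82785 normalized CPM (the count of a gene scaled to a common library size with TMM factors), with none at 0 in any group. Sirt1 counts did not separate the genotypes: WD WT EV ranged from 7.99 to 9.53 normalized CPM and WD LKO EV from 7.16 to 10.1. Counts over the whole gene do not resolve the LoxP-flanked part, so they check nothing about the knockout, and the genotype is given as labelled. Nampt ranged from 38.3 to 54.1 normalized CPM in WD WT EV, 46.8 to 77.8 in WD WT NAMPT, 46 to 75.6 in WD LKO EV and 53.9 to 127 in WD LKO NAMPT, with overlap in both pairs. A total of 5 libraries had a quality weight below 0.6 in the fit: WT NAMPT replicates 1, 2 and 6, and LKO NAMPT replicates 1 and 3. LKO NAMPT replicate 3 had the highest share of counts in mitochondrially encoded genes, 12.31%, and in its 10 most abundant genes, 26.71%. WT NAMPT replicate 2 held the lowest value of its group for 28 of the 39 members, as did replicate 1 of WD WT EV and of LKO EV, and its median deviation from the group mean was -0.48 on the log2 scale, against -0.34 and -0.24 in those libraries. The TMM factor of WT NAMPT replicate 2 was the largest of all libraries, at 1.294. Before that scaling the members held 1.433% of its counts, against 1.446% to 1.807% in the rest of its group.

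A clock-gene score moved with the groups and bears on every comparison with chow. It is the mean standardized level of 5 clock genes listed with Arntl minus that of 8 clock genes listed with Dbp. The 3 chow libraries scored from 2.4 to 4.39, and the highest WD library scored 1.38. The labels give no hour of collection, so the diet and the hour cannot be told apart here.

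Promoter windows were read for 28 of the 39 members from RefSeq (GRCm38.p6), each from 250 bases before to 50 bases after the start. Of 6 motifs searched on both strands, only the E-box CACGTG, the core motif of clock and other helix-loop-helix factors, was found, in the windows of Ass1, Slc25a15 and Cbs (3 of 32 windows). It stood in 7.15% of all 32817 windows. The other motifs were the cAMP response element TGACGTCA (1.79% of all windows), the C/EBP palindrome TTGCGCAA (0.183%), the D-box TTATGTAA (0.935%), the HNF4 site CAAAGTCCA (0.475%) and the glucocorticoid response element (0.00914%). All 3 genes were called lower on Western diet, so their windows are shown, 5′ to 3′ on the gene's strand with the E-box in capitals. The Ass1 window is chr2:31470020-31470319 (plus strand), 1 of the 2 Slc25a15 windows chr8:22398228-22398527 (minus strand, the other window holding none of the motifs) and the Cbs window chr17:31637156-31637455 (minus strand).
Ass1: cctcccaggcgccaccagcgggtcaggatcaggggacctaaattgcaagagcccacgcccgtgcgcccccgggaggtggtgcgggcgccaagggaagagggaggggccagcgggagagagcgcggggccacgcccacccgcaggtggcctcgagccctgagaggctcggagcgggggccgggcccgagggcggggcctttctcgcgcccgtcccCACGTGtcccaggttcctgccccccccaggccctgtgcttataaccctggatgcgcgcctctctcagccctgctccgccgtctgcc
Slc25a15: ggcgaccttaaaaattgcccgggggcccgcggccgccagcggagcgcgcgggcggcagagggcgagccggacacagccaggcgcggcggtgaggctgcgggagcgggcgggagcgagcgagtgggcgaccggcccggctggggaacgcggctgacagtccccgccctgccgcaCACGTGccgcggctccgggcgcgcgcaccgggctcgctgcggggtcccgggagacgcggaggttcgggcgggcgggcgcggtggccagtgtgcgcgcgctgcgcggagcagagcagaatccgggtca
Cbs: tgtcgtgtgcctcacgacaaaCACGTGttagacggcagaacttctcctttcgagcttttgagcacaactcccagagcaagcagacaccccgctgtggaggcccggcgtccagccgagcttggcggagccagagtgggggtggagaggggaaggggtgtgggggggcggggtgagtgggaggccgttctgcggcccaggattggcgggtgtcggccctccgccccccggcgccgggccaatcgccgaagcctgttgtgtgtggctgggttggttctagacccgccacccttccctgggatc
The E-box began 36 bases before the start in Ass1, 77 before it in Slc25a15 and 229 before it in Cbs. These starts are those of RefSeq transcripts, and the matches in Ass1 and Slc25a15 lie inside the gene spans of the annotation used for gene positions here, which begin further upstream. A match is only a run of letters, and no binding was measured.

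Levels between genes were compared per length, as the normalized CPM per kb of exon in WD WT EV (mean ± SD, n = 6). Ass1 (argininosuccinate synthase) led at 816 ± 232, followed by Hpd (hydroxyphenylpyruvate dioxygenase, tyrosine breakdown) at 653 ± 203, and Cps1 (carbamoyl phosphate synthetase, the entry step of the cycle) stood at 535 ± 246. The least abundant were Pcca (a propionyl-CoA carboxylase subunit) at 16.2 ± 1.29, Mccc1 (a methylcrotonyl-CoA carboxylase subunit) at 4.52 ± 0.494 and Sdsl (serine dehydratase-like) at 4.49 ± 1.46. Of the 38 neighbouring pairs in this order, 36 had overlapping ranges of libraries, so most adjacent ranks did not differ beyond their spread. The exceptions were the step from Hgd, at 194 ± 26.9, down to Uroc1, at 129 ± 6.48, and the step from Pcca down to Mccc1. Together the 39 genes took 2.28% to 2.89% of all counts in chow libraries and 1.11% to 2.04% in WD WT EV. The 10 most abundant genes of each library took 16.3% to 18.3% and 17.1% to 23.5%.

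**Figure D1:**
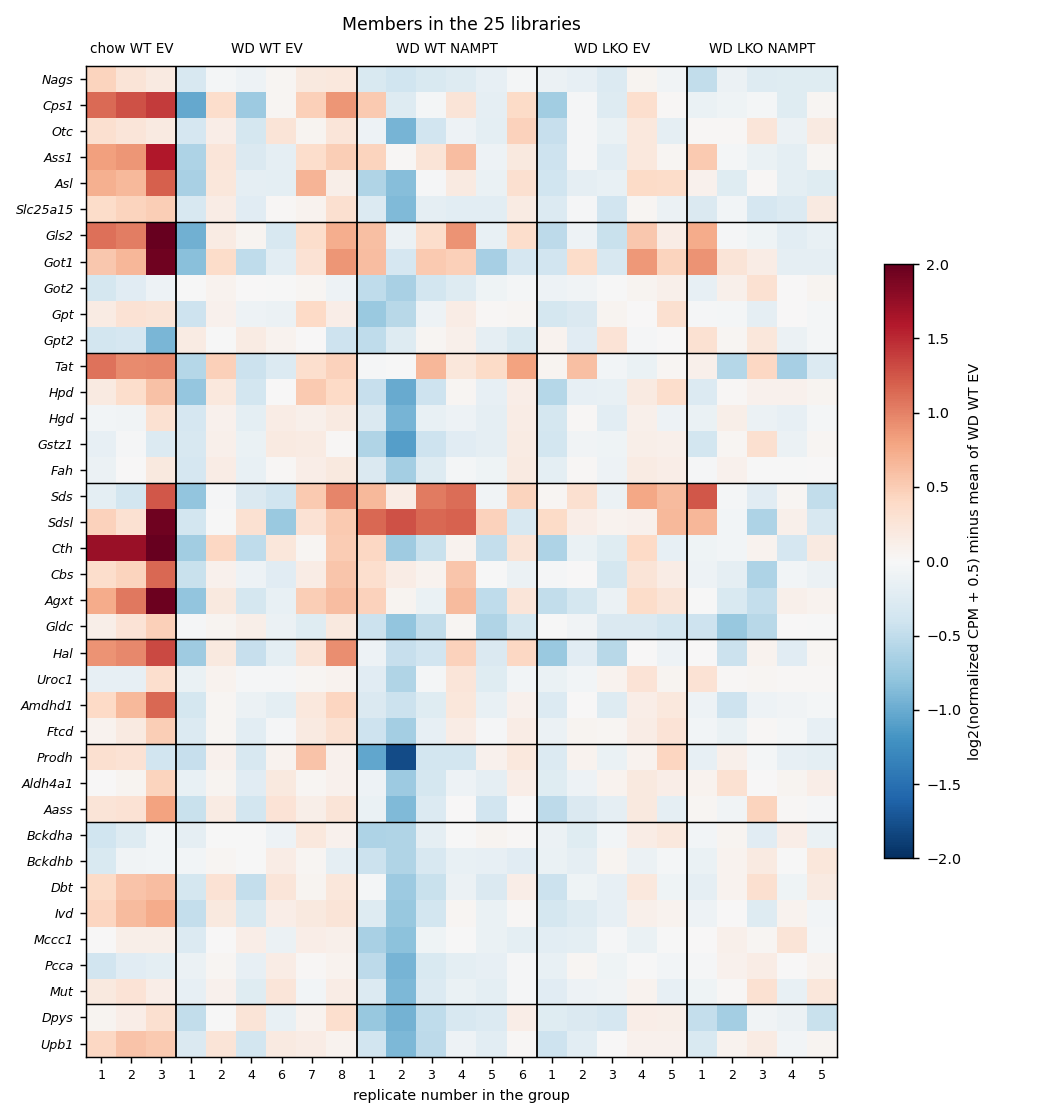
Each column is 1 library, each row 1 of 38 members in pathway order, and colour gives log2(normalized CPM + 0.5) minus the mean of the 6 WD WT EV libraries, with the colour scale ending at 2 either way. The 3 chow columns are red for most urea cycle genes, and the column of WT NAMPT replicate 2 is blue for most rows, where it held the lowest value of its group for 28 of 39 members.

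Western diet was compared with chow in WT EV livers to ask how these genes differed with the diet, and most of the calls were falls. A total of 19 of 39 members (48.7%) were called at an adjusted p-value of 0.05 or less by limma with Benjamini-Hochberg adjustment over 14065 genes, against 22% of all genes tested. Of these, 16 were lower on Western diet, or 41% of members against 12.0% of all genes, and 3 were higher, or 7.69% against 10.1%. The median log2 fold change was -0.31 over the members and -0.0047 over all genes. In 12 members (30.8%, against 16.1% of all genes) the chow and WD WT EV libraries did not overlap. The members that fell included 6 of 7 urea cycle genes, glutaminase, both transsulfuration enzymes and the entry enzymes of tyrosine and histidine breakdown. In whole liver, fewer cells of a type and less RNA per cell cannot be told apart.

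In the urea cycle, 6 of 7 members fell. Cps1 (chromosome 1 from 67123026 to 67231259, GRCm38, plus strand, 38 exon blocks) held 5917, 6518 and 7102 normalized CPM in the chow libraries, and WD WT EV ran from 1324 through a median of 3096 to 4970. Every chow library was above every WD WT EV library, and Cps1 fell 2.33-fold (log2 -1.22 ± 0.25 SE, adjusted p = 0.00117 by limma). Ass1 (chromosome 2 from 31470207 to 31520672, plus strand), which joins citrulline and aspartate, held 3191, 3362 and 5508 normalized CPM on chow and 1178, 1879 and 2548 (lowest, median and highest) in WD WT EV. The groups did not overlap, with 1 chow library far above the other two, and the change was 1.91-fold lower (log2 -0.93 ± 0.19, adjusted p = 0.000934, limma).

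Nags, which makes the acetylglutamate that activates Cps1, held 58.8, 61.6 and 70.7 normalized CPM on chow and 41.2, 51.8 and 60.1 in WD WT EV, so the groups overlapped. Its fall of 0.33 on the log2 scale passed (adjusted p = 0.00826, limma), but not without chow replicate 1 or 2, and 443 of its exonic bases are shared with Gm11586 on the other strand. Asl (argininosuccinate lyase) fell by 0.73 and Slc25a15 (the mitochondrial ornithine carrier) by 0.41. Otc (ornithine transcarbamylase) was the exception at log2 -0.25 ± 0.14, with an adjusted p of 0.198 by limma.

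Among the 5 enzymes that deliver nitrogen, 1 was called lower and 2 higher. Gls2 (liver glutaminase, which frees ammonia from glutamine; chromosome 10 from 128194457 to 128210004) held 343, 362 and 676 normalized CPM on chow and 86.6, 182 and 280 in WD WT EV. No library overlapped, and Gls2 was 2.24-fold lower (log2 -1.17 ± 0.26, adjusted p = 0.0023, limma). Both called rises here were mitochondrial aminotransferases. Gpt2 (alanine aminotransferase) held 313, 459 and 467 normalized CPM on chow and 443, 606 and 664 in WD WT EV, with overlap, and was 1.34-fold higher (adjusted p = 0.0135, limma). Got2 (aspartate aminotransferase) held 444, 486 and 529 on chow and 528, 566 and 593 in WD WT EV, and was 1.2-fold higher (adjusted p = 0.0206, limma). The cytosolic partners were not called, at log2 -0.75 ± 0.31 for Got1 (adjusted p = 0.0771) and -0.24 ± 0.14 for Gpt (adjusted p = 0.216, limma).

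The largest log2 fold change of any member in this comparison was in transsulfuration, the route from methionine to cysteine. Cth (cystathionine gamma-lyase, which releases cysteine; chromosome 3 from 157894248 to 157925077, minus strand, 13 exon blocks) held 597, 600 and 1028 normalized CPM on chow. WD WT EV ran from 111 through 199 to 257, and the 3 other WD groups stayed between 110 and 241. Cth was 3.43-fold lower than on chow, with a 95% interval of the log2 change from -2.25 to -1.31 (adjusted p = 6.53e-06, limma), and ranked number 84 of all genes by p-value. Cbs (cystathionine beta-synthase, the step before it) held 405, 433 and 707 on chow and 234, 316 and 465 in WD WT EV, an overlapping fall of 0.50 on the log2 scale (adjusted p = 0.0266). Agxt (alanine-glyoxylate aminotransferase) held 193, 240 and 453 normalized CPM on chow and 66.4, 118 and 177 in WD WT EV, 2.06-fold lower without overlap (adjusted p = 0.00397, limma). Sds (serine dehydratase) and Gldc (glycine decarboxylase) were not called, at 0.08 ± 0.30 and -0.23 ± 0.15 on the log2 scale.

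In tyrosine breakdown only the entry enzyme fell. Tat (tyrosine aminotransferase; chromosome 8 from 109990437 to 109999803, plus strand) held 1338, 1356 and 1477 normalized CPM on chow and 470, 726 and 968 in WD WT EV. The groups did not overlap, and Tat was 1.93-fold lower (log2 -0.95 ± 0.21, adjusted p = 0.0026, limma). The 4 enzymes after it were not called, and their log2 fold changes lay between -0.31 for Hpd and 0.11 for Gstz1 (maleylacetoacetate isomerase). In histidine breakdown 2 of 4 were called. Hal (histidine ammonia-lyase, the entry step) held 348, 361 and 462 normalized CPM on chow and 113, 187 and 352 in WD WT EV, 1.97-fold lower (adjusted p = 0.00335, limma). Amdhd1 (imidazolonepropionase) held 195, 232 and 327 on chow and 116, 143 and 198 in WD WT EV, 1.55-fold lower (adjusted p = 0.00307). Uroc1 (urocanate hydratase) and Ftcd (formiminotransferase cyclodeaminase) were not called, at 0.10 ± 0.10 and -0.18 ± 0.11.

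Of the 7 branched-chain and propionate genes, 2 fell and 1 rose. Ivd (isovaleryl-CoA dehydrogenase, leucine) held 186, 213 and 231 normalized CPM on chow and 98.7, 155 and 165 in WD WT EV, 1.47-fold lower (adjusted p = 0.0046, limma). Dbt (the transacylase core of the branched-chain dehydrogenase) held 106, 121 and 125 on chow and 58.2, 89.9 and 99.5 in WD WT EV, 1.39-fold lower (adjusted p = 0.0177). Pcca went the other way, from 64.6, 72 and 73.3 on chow to 74.8, 85.9 and 92.7 in WD WT EV, 1.21-fold higher without overlap (adjusted p = 0.0194, limma). The partner subunits Bckdha and Bckdhb lay at 0.28 ± 0.11 and 0.17 ± 0.08 and were not called, and Bckdha turned to -0.086 with the clock-gene covariate. In pyrimidine breakdown, Upb1 (beta-ureidopropionase) held 275, 296 and 306 on chow and 160, 222 and 245 in WD WT EV, 1.39-fold lower (adjusted p = 0.0112), and Dpys (dihydropyrimidinase) was not called at -0.14 ± 0.15. None of the 3 proline and lysine genes was called.

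**Figure D2:**
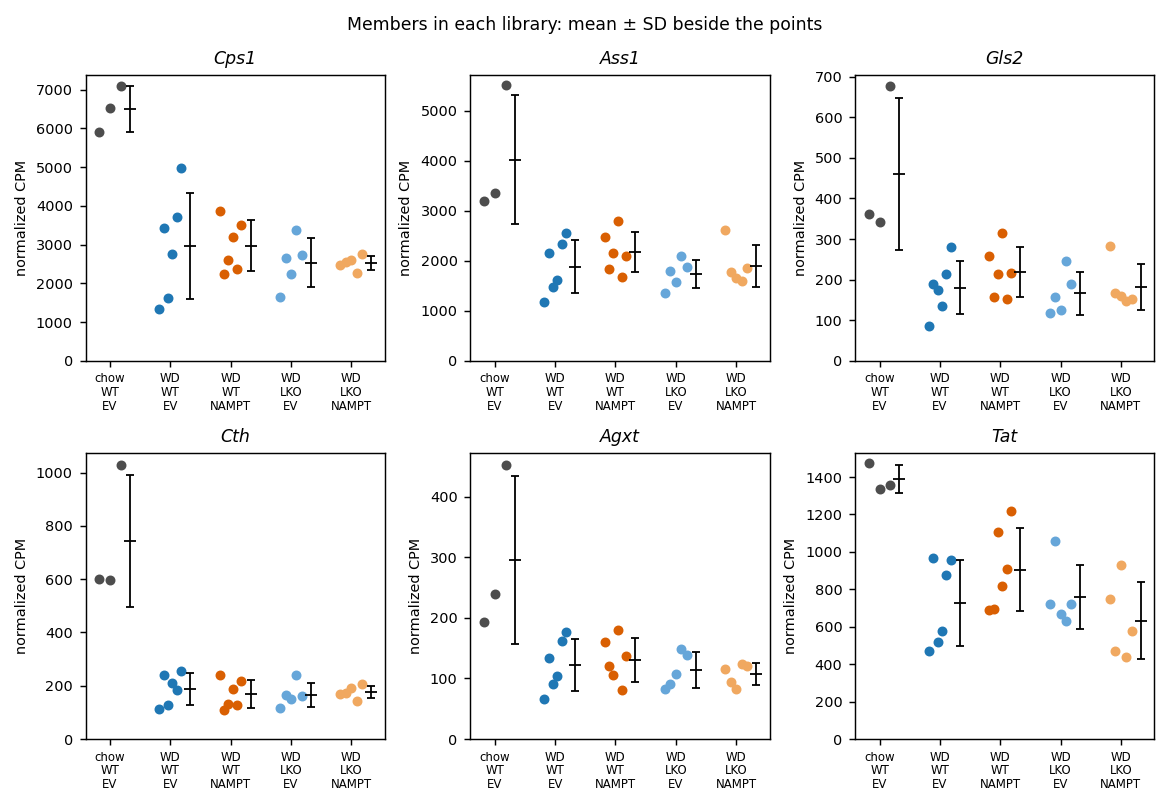
Normalized CPM (linear axis from 0) of 6 members in each library, 1 point per library, with the mean ± SD of each group beside its points. Chow libraries stood above every WD WT EV library for all 6, for example 597 to 1028 against 111 to 257 for Cth.

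The diet calls differed in how far they rested on single libraries. In 8 of the 19, among them Cps1, Ass1, Asl, Gls2, Cth, Agxt and Amdhd1, the call held under all 9 alternative settings and in all 9 fits without 1 library. Hal and Ivd lost the call without chow replicate 2, Tat, Nags, Slc25a15 and Upb1 without chow replicate 1 or 2, and Got2 and Pcca also without WD WT EV replicate 2. Cbs and Dbt kept it in 4 and 5 of the 9 fits. With only 3 chow libraries, the count of called members was 10 without chow replicate 2, and 13 without chow replicate 1, while the share of all genes called was 5.95% and 6.89%. With the clock-gene score as a covariate, 20 members were called, all lower, beside 12.9% of all genes, and the rises of Gpt2, Got2 and Pcca and the falls of Slc25a15 and Cbs were no longer called. The member median was -0.71 with that covariate and -0.52 with the replicate block. Chow scores lay above all WD scores, so the covariate fit extends a slope estimated within groups across a gap that no library fills. The Got2 and Pcca rises were also lost with the edgeR quasi-likelihood test, DESeq2, no quality weights and the replicate block, and that of Pcca without the filter on low counts. Of the falls, Nags was lost under 5 of the 9 settings, Slc25a15 and Dbt under 4 (the edgeR quasi-likelihood test and DESeq2 among them for all 3 genes), and Upb1 and Cbs under 2. Clock genes changed in the same comparison, with 5 of 5 genes of the Arntl list lower (Arntl at a log2 fold change of -1.58) and 6 of 8 genes of the Dbp list higher (Dbp at 4.04). Macrophage markers were called higher in 2 of 8 and stellate markers in 2 of 5, with summed levels of 248 to 307 and 183 to 205 normalized CPM on chow and 307 to 444 and 171 to 349 in WD WT EV. Periportal genes were lower in 2 of 7 (median log2 fold change -0.42), with sums of 3400 to 4441 on chow and 2234 to 3642 in WD WT EV, pericentral genes were higher in 2 and lower in 2 of 12, and hepatocyte markers were lower in 1 of 6, with sums of 70796 to 82551 and 59149 to 75836. No marker of these lists was at 0 in a group, and their part in the result was not tested.

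Other genes of the same pathways, 64 of 67 of which could be tested, were read beside them. On Western diet 8 fell and 5 rose, or 12.5% and 7.81%, near the 12.0% and 10.1% of all genes, with a median log2 fold change of -0.03. The largest changes were Csad (cysteine sulfinate decarboxylase, which makes the taurine precursor) at -2.23 on the log2 scale, Gcat (threonine breakdown) at -1.21 and Aldh18a1 (proline synthesis) at 1.13. The counts of this list depended on the setting. With the replicate block 19 were lower and 5 higher (median -0.16), beside 27.3% of all genes called. With the clock-gene covariate 11 were lower and 1 higher (median -0.23), beside 12.9%. Fits without 1 library called 4 to 15, beside 5.95% and 22.6%. Of 16 regulators, Cebpb (a factor induced by glucagon and glucocorticoids) was higher at 1.02 and 3 were lower, among them Atf4 (the amino acid stress factor) at -0.49 and Creb1 at -0.36. Of 10 genes that respond to fasting and feeding, 3 were higher and 1 lower, or 30% and 10%, against 10.1% and 12.0% of all genes. Their part in the members' values on Western diet was not tested. None of the deacylases Sirt1, Sirt3, Sirt4 and Sirt5 was called in any comparison. For the mitochondrial deacylases, the diet change was 0.21 ± 0.13 for Sirt3 and -0.04 ± 0.13 for Sirt5 on the log2 scale.

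NAMPT in WT livers on Western diet was compared with EV to ask which of these genes followed the vector. In the urea cycle 0 of 7 members were called, and Cps1 had medians of 2907 and 3096 normalized CPM with NAMPT and EV. A total of 4 of the 39 members (10.3%) were called by limma, against 13.4% of all genes, so the share was near the background. Sdsl was higher, and Got2, Bckdhb and Pcca were lower, that is 2.56% higher and 7.69% lower against 7.67% and 5.77% of all genes. The median log2 fold change was -0.17 over members against 0.0041 over all genes, and 30 of 39 (76.9%) were negative, against 49.3% of all genes. The same number were negative between LKO EV and WT EV, which shares the WT EV libraries. No member had groups without overlap, which 0.960% of all genes had.

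Sdsl (chromosome 5 from 120458186 to 120472810, minus strand), a low-level relative of serine dehydratase, held 3.62, 7.16 and 9.47 normalized CPM in WD WT EV and 5.06, 14.8 and 16.3 with NAMPT. Replicates 1 to 4 of WT NAMPT lay between 14.8 and 16.3, above every EV library, while replicates 5 and 6 held 9.06 and 5.06, inside the EV range. The change was 2.1-fold higher (log2 1.07 ± 0.26, adjusted p = 0.0133, limma). Sds, its neighbour on chromosome 5, lay in the same direction at 0.79 ± 0.30 but was not called (adjusted p = 0.0735), and 501 of its exonic bases are shared with genes on the other strand.

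The 3 falls were of 1.21-fold to 1.23-fold. Got2 held 528, 566 and 593 normalized CPM in WD WT EV and 360, 456 and 549 with NAMPT, 1.23-fold lower (log2 -0.30 ± 0.08, adjusted p = 0.0158, limma). Pcca held 74.8, 85.9 and 92.7 with EV and 43.8, 70.4 and 82.2 with NAMPT, 1.23-fold lower (adjusted p = 0.0201), and 241 of its exonic bases are shared with Ggact on the other strand. Bckdhb (a decarboxylase subunit of the branched-chain dehydrogenase; chromosome 9 from 83925145 to 84124240) held 62, 71.1 and 77.6 with EV and 46.3, 58.1 and 63 with NAMPT, 1.21-fold lower (adjusted p = 0.0238). Each pair overlapped by 1 or more libraries. All 7 branched-chain and propionate genes had a negative log2 fold change, from -0.30 for Dbt to -0.13 for Bckdha, of which 2 were called. Among members that missed the threshold, Nags lay at -0.25 (adjusted p = 0.0507), Dpys at -0.41 (0.0512) and Gstz1 at -0.35 (0.0561, limma).

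The count depended on the setting in both directions. DESeq2 called 5 members (1 higher, 4 lower), beside 8.49% of all genes. The clock-gene covariate called 11 (1 higher, 10 lower), beside 15.6%, and the replicate block 5 (3 higher, 2 lower, with a member median of -0.01), beside 6.29%. Under 4 settings that lost member calls, the share of all genes called was also lower: it was 1.37% without sample quality weights, where no member was called, 3.04% with the edgeR quasi-likelihood test, where 1 was, 2.07% without WD WT EV replicate 2 and 0.94% without WT NAMPT replicate 3. Among members, 0 were called without WD WT EV replicate 2 or without WT NAMPT replicate 3, while 10 were called without WD WT EV replicate 1 or WT NAMPT replicate 5. In the fits that called 10, the share of all genes called was higher too, at 15.6% and 19.9%. Scaling by library size alone put the median log2 fold change of all genes at 0.156, and then 2 members were called higher (Sds and Sdsl) and 0 lower, beside 16.2% of all genes. Of the 64 other genes of the pathways, 24 (37.5%, against 5.77% of all genes) were lower and 1 higher, with Hsd17b10 (isoleucine breakdown) at -0.86 on the log2 scale, Cdo1 (cysteine dioxygenase) at -0.77 and Aldh18a1 at 0.90. That count was 11 lower and 3 higher with library size alone, where the median of the list was -0.12 in place of -0.27. It was 2 lower with the edgeR quasi-likelihood test or without quality weights, and 4 lower without WD WT EV replicate 2 or WT NAMPT replicate 3.

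Markers of other cells and of liver zones moved in the same comparison. Macrophage markers were higher in 5 of 8, and their summed level was 307 to 444 normalized CPM with EV and 289 to 812 with NAMPT. Stellate markers were higher in 3 of 5, with sums of 171 to 349 and 182 to 582, and neutrophil markers in 2 of 3 tested, with sums of 2.56 to 6.79 and 3.02 to 24.7 and Ly6g at 0 in every WD WT EV library. Lymphocyte markers were higher in 1 of 3 tested, with sums of 12.8 to 24.7 and 11.6 to 53.8. Pericentral genes were lower in 3 of 12 (Cyp2c29, Cyp2e1 and Oat), with sums of 7507 to 12578 and 2682 to 11149 normalized CPM. Periportal genes, the zone where the urea cycle is known to be strongest, were higher in 3 of 7, with sums of 2234 to 3642 and 2065 to 4020. Of the 5 clock genes listed with Arntl 4 were lower, with Arntl at -1.99 on the log2 scale. Of the 8 listed with Dbp 0 were called, with a median log2 fold change of 0.33. Mitochondrially encoded genes took 4.07% to 8.57% of counts with NAMPT (median 4.81%) and 4.83% to 8.1% with EV (median 6.73%). Genes above 1 CPM numbered 12243 to 13491 with NAMPT and 12397 to 12667 with EV. The part of these shifts in the members' values was not tested.

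NAMPT in livers labelled LKO gave 0 called members, against 0.00711% of all genes, which was 1 gene. By limma 1 of 39 members had an unadjusted p-value under 0.05 (Tat, -0.51 ± 0.20), and edgeR quasi-likelihood and DESeq2 called 0. Sdsl held 6.76, 6.88, 7.12, 8.53 and 10.3 normalized CPM in LKO EV and 4.01, 5.02, 6.15, 6.94 and 10.5 in LKO NAMPT. The ranges overlapped, with a log2 change of -0.32 and a 95% interval from -0.90 to 0.27. Pcca held 75.3, 79.3, 80.4, 83.1 and 86.1 in LKO EV and 83, 84.8, 88.4, 89.3 and 93.4 in LKO NAMPT, a log2 change of 0.11 with an interval from -0.06 to 0.29. All 7 branched-chain and propionate genes had a positive log2 fold change here, from 0.02 for Bckdha to 0.20 for Mccc1, and none was called. The median over the 39 members was 0.04, beside 0.016 over all genes.

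The test of the difference itself, the NAMPT effect in LKO minus that in WT, called 0 of 39 members, and 0.00711% of all genes. At an unadjusted p-value under 0.05 there were 13 of 39 members and 2986 of 14065 genes by limma, and the edgeR quasi-likelihood test and DESeq2 called 0. Bckdhb came nearest, at 0.43 on the log2 scale with a 95% interval from 0.20 to 0.66 (adjusted p = 0.0745). Sdsl lay at -1.39, interval -2.17 to -0.60 (adjusted p = 0.0774), Pcca at 0.41 (0.0843) and Got2 at 0.38 (0.0897, limma). None of these differences passed. The count was 3 with the clock-gene score as covariate, beside 2.09% of all genes, and 1 without the 5 low-weight libraries, beside 2.63%.

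**Figure D3:**
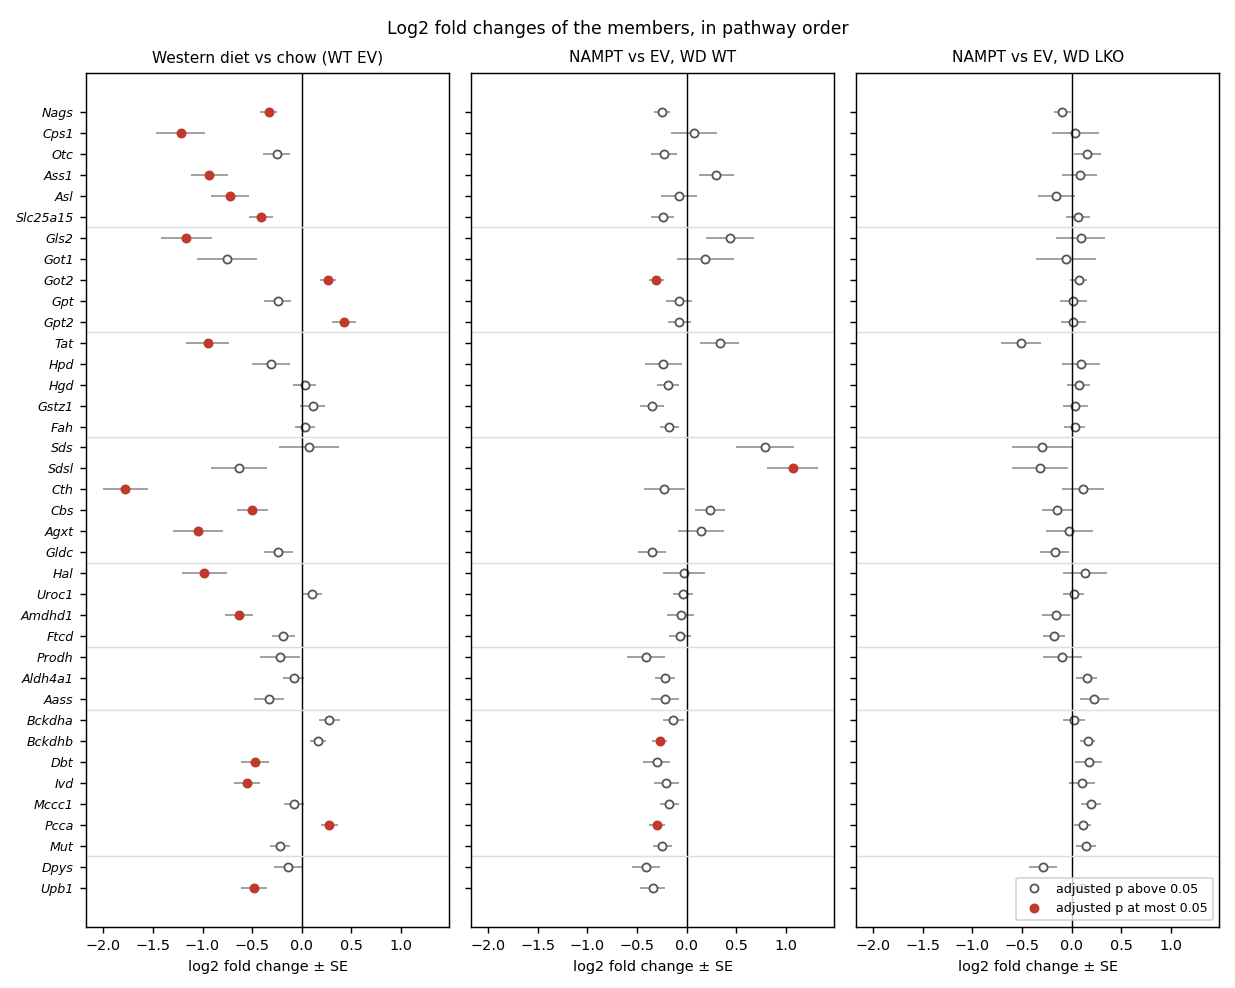
Log2 fold change ± SE of 38 members (rows, in pathway order) for Western diet against chow, NAMPT against EV in WD WT, and NAMPT against EV in WD LKO; filled points had an adjusted p-value of at most 0.05. There are 18 filled points in the first panel, 4 in the second and 0 in the third.

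Livers labelled LKO were compared with WT livers under the same NAMPT vector, a comparison that shares its WT NAMPT libraries with the one above. A total of 6 of 39 members (15.4%) were called by limma, against 7.96% of all genes, with 4 higher (10.3%, against 4.18%) and 2 lower (5.13%, against 3.78%). Got2 held 505, 568, 588, 605 and 696 normalized CPM in LKO NAMPT against 360, 456 and 549 in WT NAMPT, 1.28-fold higher (adjusted p = 0.0221, limma). Bckdhb held 63.9, 69.7, 74, 79.8 and 82.2 against 46.3, 58.1 and 63, 1.27-fold higher (adjusted p = 0.0223). Pcca held 83 to 93.4 against 43.8 to 82.2, 1.28-fold higher (adjusted p = 0.0225). Bckdhb and Pcca were the 2 members (5.13%, against 1.39% of all genes) whose groups did not overlap.

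Aldh4a1 (pyrroline-carboxylate dehydrogenase, proline breakdown) held 219, 225, 228, 240 and 268 normalized CPM in LKO NAMPT and 132, 197 and 240 in WT NAMPT, 1.29-fold higher (adjusted p = 0.0393, limma), with 1595 exonic bases shared with Gm21969 on the same strand. That call held in 1 of 9 alternatives, those of Got2 and Pcca in 6, Bckdhb in 5, Tat in 4 and Sdsl in 3. Sdsl held 4.01 to 10.5 against 5.06 to 16.3 and was 2.15-fold lower (adjusted p = 0.0225). Tat held 438, 470, 579, 747 and 932 in LKO NAMPT against 688, 861 and 1221 in WT NAMPT, 1.67-fold lower (adjusted p = 0.0354). The count was 0 with the edgeR quasi-likelihood test, without quality weights, with only the groups compared, and without any 1 of WT NAMPT replicates 2 and 3 or LKO NAMPT replicates 2, 3 and 5. The share of all genes called lay between 0 and 1.42% under these settings, against 7.96%. Of the 64 other genes of the pathways, 18 were higher (28.1%, against 4.18% of all genes) and 2 lower, with log2 fold changes of -1.07 for Aldh18a1, -0.97 for Csad and 0.91 for Oat (ornithine aminotransferase). In the edgeR quasi-likelihood fit 0 of them were called. Pericentral genes were higher in 6 of 12, with summed levels of 4767 to 12162 normalized CPM in LKO NAMPT and 2682 to 11149 in WT NAMPT. Markers were lower in 2 of 8 for macrophages (sums of 309 to 633 and 289 to 812), in 1 of 3 tested for neutrophils (3.98 to 14.1 and 3.02 to 24.7), in 1 of 3 tested for lymphocytes (16.8 to 33.7 and 11.6 to 53.8) and in 1 of 7 for periportal cells (2432 to 3502 and 2065 to 4020), and higher in 1 of 4 for erythrocytes (594 to 1471 and 276 to 1372). Their part in the members' values was not tested.

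**Figure D4:**
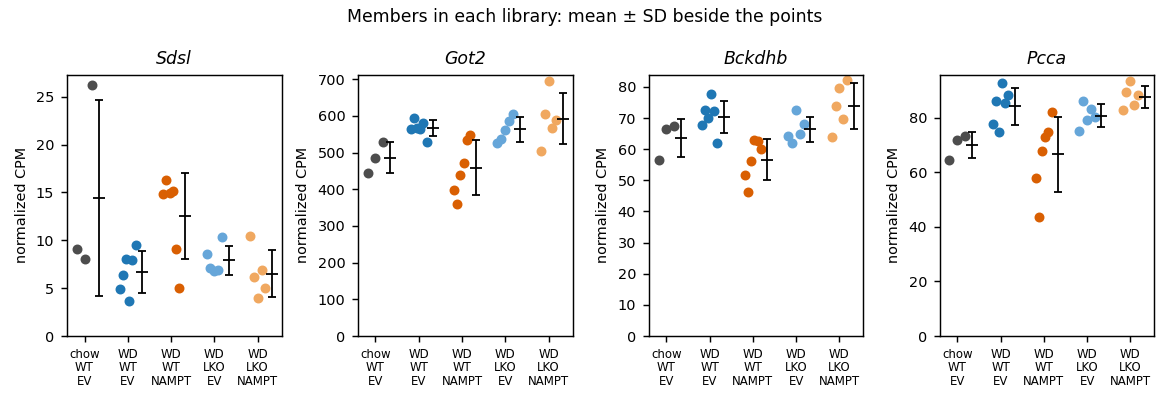
Normalized CPM (linear axis from 0) of the members called with NAMPT in WT, 1 point per library, with the mean ± SD of each group beside its points. In Sdsl, 4 WT NAMPT libraries lie between 14.8 and 16.3 and the other two lie within the EV range, and in Pcca all LKO NAMPT libraries (83 to 93.4) lie above the WT NAMPT libraries.

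No difference by labelled genotype was detected among these genes under EV. Between LKO EV and WT EV on Western diet 0 of 39 members were called by limma, against 0.00711% of all genes, and no groups were without overlap, against 0.590%. None had an unadjusted p-value under 0.05, and edgeR quasi-likelihood and DESeq2 called 0. Cps1 held 1658, 2251, 2642, 2738 and 3384 normalized CPM in LKO EV, inside the WT EV range, with a log2 change of -0.14 and a 95% interval from -0.60 to 0.31. The interval for Got2 ran from -0.18 to 0.13, so a change of the size seen with NAMPT in WT lay outside it. Of the log2 fold changes, 30 of 39 (76.9%) were negative, against 49.5% of all genes, including all 7 of the urea cycle and all 7 branched-chain and propionate genes, with a member median of -0.089. That median turned to 0.106 with the replicate block. It was -0.00246 without LKO EV replicate 1 and -0.0123 without WD WT EV replicate 2. The largest log2 differences were -0.33 ± 0.20 for Hal and 0.33 ± 0.29 for Sds.

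Within groups, the members varied together from mouse to mouse. Deviations of log2(normalized CPM + 0.5) from the group mean were correlated between members over the 25 libraries, which share depth, scaling and any difference in hour or feeding, so the values are descriptive. The median Pearson r over all 741 pairs was 0.54, with 0.61 for the 87 pairs within a pathway and 0.53 for the 654 across pathways. Among the highest values were Ass1 with Gls2 (r = 0.94) and with Got1 (r = 0.93), and each of these with Sds (0.90 for Ass1 and 0.91 for the others). The most variable members within groups were Sds, Got1, Sdsl and Gls2, with SDs of 0.60, 0.58, 0.55 and 0.48 on the log2 scale, and the steadiest were Bckdhb at 0.13, and Got2 and Nags at 0.15. Gpt2 held some of the lowest values, with r of -0.58 with Cbs and -0.52 with Cth.

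Chow replicate 3 held the highest chow value for 30 of 39 members, with 676 normalized CPM of Gls2 against 362 and 343 in the other chow libraries, 380 of Got1 against 143 and 156, and 26.2 of Sdsl against 9.06 and 8.01. Gpt2 was lowest there, at 313 against 459 and 467. This library had the lowest chow clock-gene score, 2.4 against 3.72 and 4.39, and a quality weight of 0.608. Without it, the diet comparison gave 4 rises and 15 falls among members, beside 21.8% of all genes called, and Cbs was no longer called. In WD WT EV, replicate 1 held the lowest value for 28 members and replicate 8 the highest for 20. The deviations of 38 of the 39 members correlated negatively with the clock-gene score within groups, down to r = -0.68 for Asl, and Gldc was the exception at 0.39. No such correlation was computed for other genes. The members varied together within groups, so they are not separate observations and the count is descriptive.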

How the data were processed

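Liver poly-A RNA was sequenced as single reads of 50 bases, 1 library per mouse. Per the labels' processing notes, the authors used bcl2fastq, STAR 2.5.1a, featureCounts 1.4.6-p5 and the GRCm38 build, and strandedness is not given in the sources used here. The deposited counts are raw reads per gene. The deposited CPM and RPKM values are the authors' scaling of those counts to library size and gene length, which recomputed from the counts within a relative deviation of 5.8e-14, and only the counts were tested.

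Groups followed the sample titles. The treatment text of the labels names SIRT1 as the vector, whereas titles and series name NAMPT. Genes above 1 CPM in at least 2 libraries were kept (14065), without rRNA genes. Counts were normalized by TMM (edgeR 4.0.16) and fitted with limma 3.58.1 voom with sample quality weights over all 25 libraries in R 4.3.3. Calls used a Benjamini-Hochberg adjusted p-value of 0.05 over all 14065 genes. Intervals are 95% intervals, and a pseudocount of 0.5 was used for log2 CPM. Fits were tested on simulated data.

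Alternatives were the edgeR quasi-likelihood test, DESeq2 1.42.0, no quality weights, library size alone, no filter, only the groups compared, a replicate block, a clock-gene covariate and leaving out each library. Leaving out the 5 low-weight libraries was chosen after seeing the data. Members and gene lists were chosen with earlier results of these data known. The rule lets all 39 members be named (1 member and 1 regulator are counted but not reported here by name), with every library's value for at most 4 per pathway, those with the smallest adjusted p. From other lists at most 3 called genes per comparison are named, those with the largest log2 fold change, besides Sirt1, Nampt, Sirt3 and Sirt5. No pair of libraries was a duplicate: within groups, chi-square over its degrees of freedom was at least 15.1.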

Additional observations from a re-analysis of the deposited data

Results flagged for a closer look

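In 152 member-by-group sets of 5 or 6 libraries, 13 had a highest or lowest library whose gap to its nearest neighbour exceeded Dixon's 95% critical value (0.71 of the range for 5 libraries and 0.625 for 6), where chance gives about 1 in 20. Of these, 10 were in LKO NAMPT, and 5 of them were its replicate 1. That library held the highest Ass1 (2609 normalized CPM, others 1585 to 1856), Gls2 (284, others 146 to 166), Sds (136, others 40.8 to 58.7) and Uroc1 (545, others 452 to 458), and the lowest Hpd (1097, others 1349 to 1406). Replicate 3 of the same group held the lowest Gpt (184, others 202 to 210) and Cbs (208, others 282 to 306) and the highest Aass (386, others 271 to 291). Replicate 2 held the highest Fah (632, others 583 to 596) and the lowest Amdhd1 (111, others 137 to 143).

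In WT NAMPT, replicate 2 held the lowest Mut (76.8 normalized CPM, others 119 to 141). WD WT EV replicate 8 held the lowest Gpt2 (443, others 590 to 664), and LKO EV replicate 2 the highest Tat (1057, others 633 to 723).

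For 3 members every WT NAMPT library lay below the WD WT EV mean and every LKO NAMPT library above the LKO EV mean. The difference between the vector effects, LKO minus WT, was 0.449 on the log2 scale for Aass (adjusted p = 0.207 by limma), 0.37 for Mccc1 (adjusted p = 0.144 by limma) and 0.414 for Pcca (adjusted p = 0.0843 by limma), none of which passed.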

How the results depend on the processing

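Of 19 members called on Western diet against chow, the alternatives called 13 to 25, and leaving out 1 library 10 (without chow replicate 2) to 20. The share of all genes called moved too. It was 9.4% with the edgeR quasi-likelihood test and 8.54% without quality weights, where 13 members were called. It was 27.3% with the replicate block (25 members), 5.95% without chow replicate 2 and 22.6% without WD WT EV replicate 8 (20 members). The 4 called with NAMPT in WT became 1 with the edgeR quasi-likelihood test or only the groups compared, 0 without quality weights, 2 without the filter, 2 with library size alone (2 higher and 0 lower, against 1 and 3) and 11 with the clock-gene covariate. In that order, the share of all genes called was 3.04%, 4.64%, 1.37%, 1.8%, 16.2% and 15.6%, against 13.4%. Without 1 library the members called ran from 0 (WD WT EV replicate 2 or WT NAMPT replicate 3) to 10 (WD WT EV replicate 1 or WT NAMPT replicate 5). All genes were called at 2.07% and 0.94% in the fits with 0, and at 15.6% and 19.9% in those with 10. The 6 called between LKO NAMPT and WT NAMPT became 0 with the edgeR quasi-likelihood test, without quality weights or with only the groups compared, and 3 with DESeq2, without the filter or with the replicate block, and ran from 0 to 8 without 1 library. Beside the 3, all genes were called at 2.09%, 0.412% and 2.93%. The 8 came without WT NAMPT replicate 6 or LKO NAMPT replicate 1, beside 16.3% and 16.1%. The interaction, at 0, gave 3 with the clock-gene covariate, 1 without low-weight libraries, and 0 to 4 without 1 library. The fits with 4 called 2.6% to 4.82% of all genes, and those with 3 and 1 called 2.09% and 2.63%. NAMPT in LKO and LKO EV against WT EV stayed at 0 in every alternative. Bckdha on Western diet turned from 0.28 to -0.086 on the log2 scale with the clock-gene covariate, and the cause was not tested. Correlations between the deviations of same-numbered libraries ran from -0.228 to 0.415 in NAMPT against EV in WT, and from -0.377 to 0.419 over all comparisons. Differently numbered libraries were not compared, so these values do not settle whether the numbers pair libraries. The replicate block called 25 on Western diet (1 higher, 24 lower) and 5 with NAMPT in WT (3 higher, 2 lower, against 1 and 3), where the member median went from -0.17 to -0.01. The count of 3 chow libraries and the unrecorded hour limit the diet comparison.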
